A study of Mus musculus with 9 samples.

Results

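Spermine-treated diabetic hearts were compared with untreated diabetic hearts, using 6 of the 9 RNA sequencing libraries of the series. The libraries were chosen by their labels alone: SPM_1, SPM_2 and SPM_3 against DCM_1, DCM_2 and DCM_3. All 6 came from the myocardium of male C57BL/6 mice (C57BL/6J in the methods) that were 6 to 8 weeks old at the start. Both groups received streptozotocin at 180 mg/kg, which destroys the insulin-producing beta cells of the pancreas, and were examined 12 weeks later. For the DCM group (diabetic cardiomyopathy model) the methods describe no further injection, of vehicle or otherwise. The SPM group was injected with spermine at 1 mg/kg, daily for 2 weeks before streptozotocin and on alternate days afterwards. Since every SPM mouse also received streptozotocin, the contrast is the addition of spermine to streptozotocin. Protection begun before the injury and treatment of established disease cannot be told apart. No blood glucose value per library was available here, so whether the groups were equally diabetic was not tested. The study's methods describe both 3 mice per group and mixtures of several hearts per library, so it is not clear whether a replicate is a mouse or a pool, and the p-values below measure the spread between these libraries.

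Spermine is a polyamine, a small positively charged molecule made from ornithine through putrescine and spermidine, and it binds nucleic acids and gates several ion channels. The diabetic heart takes up little glucose and relies on fatty acids, stores lipid in droplets, and often shows a return of fetal-type muscle genes and an infiltrate of myeloid immune cells. The genes below are described by these roles.

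Each library held between 30556114 and 39718680 counts on 22851 genes. Levels are given as CPM (counts scaled to the same library size) after adjustment between libraries by the trimmed mean of M values (TMM), and changes as log2 fold changes of SPM compared to DCM from edgeR's quasi-likelihood test, with p-values adjusted by Benjamini-Hochberg over all 14493 genes tested. A gene was called a differentially expressed gene (DEG) where the adjusted p was under 0.05 and the change 1.5-fold or more. The protocol in the labels speaks of retinas, yet the libraries held heart RNA. The 8 cardiomyocyte-defining genes measured summed to between 30920 and 42210 CPM in the 6 libraries, with Myh6, the main adult myosin heavy chain of the mouse ventricle, at 13670 to 23330 CPM. The 11 retina genes measured summed to 18.2 to 22.5 CPM, of which Rom1 held 14.2 to 19.3.

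SPM_2 stood apart before any comparison was made. Over 11992 genes with a mean of at least 50 counts, its level lay between those of SPM_1 and SPM_3 for 69.1% of genes, where each other library lay between its 2 group mates for 14.3% to 36.9%. A mixture of 44.5% SPM_1 with SPM_3 as the rest gave SPM_2 within a squared deviation whose median was 0.879 of what counting noise gives. The same measure was 2.70 to 7.26 for the other 5 libraries. Of 2656 genes without a count in SPM_1 and SPM_3, 30 had a count in SPM_2, against 485 to 1038 such genes for the other libraries. The counts of SPM_2 therefore looked like a mixture of the other 2 libraries of its group. The main results are also given without it. If it is a mixture, the SPM group held fewer than 3 independent libraries, and p-values from all 6 libraries are too small. Leaving out a mixture also hardly moves the group mean, so an unchanged value without SPM_2 is no added support. A fit without SPM_1 or SPM_3 would still hold RNA of that library through SPM_2.

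RNA of liver type lay in SPM_1 and, at a lower level, in SPM_2. The 30 hepatocyte genes measured summed to 15.2, 17.2 and 11.6 CPM in DCM_1, DCM_2 and DCM_3, and to 518.6, 245.8 and 18.6 CPM in SPM_1, SPM_2 and SPM_3. Only SPM_1 and SPM_2 were far above the DCM libraries. Albumin (Alb), the main secreted protein of the hepatocyte, was at 0.344, 0.299 and 0.258 CPM in DCM, and at 242.3, 110.6 and 0.287 CPM in SPM. Of 29 hepatocyte genes at 1 CPM or more in SPM_1, 27 were under 1 CPM in SPM_3, and the level in SPM_2 was 0.371 to 0.672 times that in SPM_1 with a median of 0.457. The difference between the group means of the summed level was 246.3 CPM (exact permutation test, two-sided p = 0.1, the smallest that 3 against 3 libraries can give), and it fell to 117.6 CPM without SPM_1. Of the 30 genes, 9 passed the low-count filter, which can admit a gene through SPM libraries alone, so their shared direction is no support. All 9 were upregulated DEGs, and 8 of them were DEGs without SPM_1, a fit that keeps the liver-type RNA of SPM_2. Of the 9, 3 (Alb, Apoh and Tat) were DEGs without SPM_2 and, in a separate fit, with the GC correction described below. Hepatocyte genes are not read as heart genes below.

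**Figure D1:**
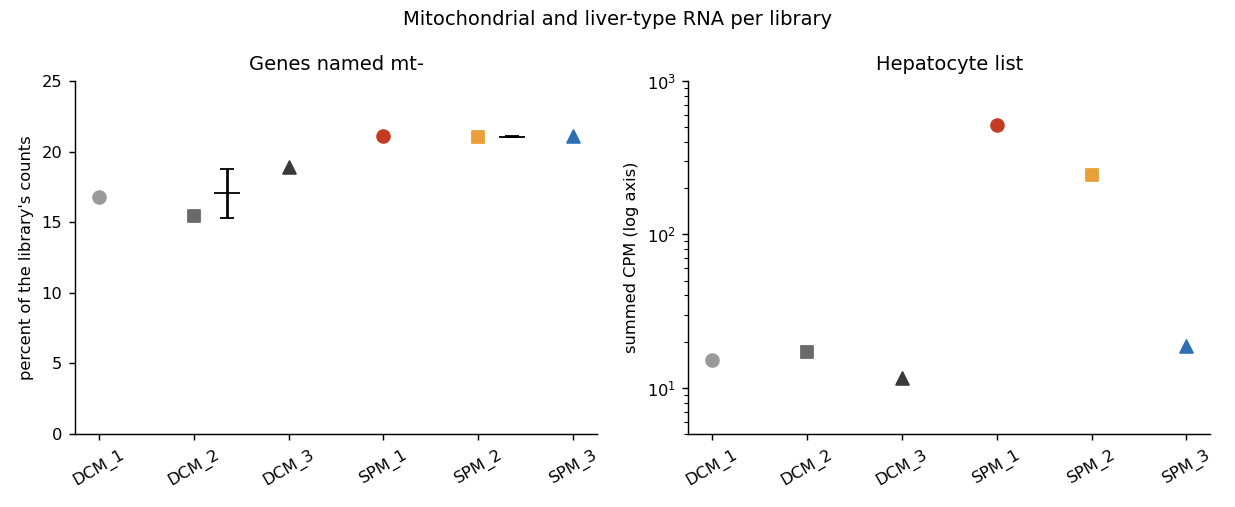
Percent of each library's counts on genes named mt- (left, linear axis from 0) and summed CPM of the 30 hepatocyte genes (right, log axis), one point per library, with the mean and SD of each group beside the points on the left. The 3 SPM libraries sit at 21.01% to 21.1% on the left, above all DCM libraries, while on the right SPM_1 and SPM_2 lie at 518.6 and 245.8 CPM and SPM_3 lies near the DCM libraries.

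A total of 392 genes were upregulated (2.7% of the genes tested) and 129 were downregulated (0.89%) in SPM compared to DCM. Libraries of the groups did not overlap for 366 of the 392 and 126 of the 129 DEGs, beside 39.3% of all genes tested. These shares are the background for every count of DEGs or of genes without overlap in the lists below, and a list with 1 DEG is not read as changed. Without SPM_2, 42 genes were upregulated (0.283%) and 14 downregulated (0.0944%), and all 56 were among the DEGs with SPM_2. DCM_2 carried a similar weight: without it, 49 genes were upregulated and 24 downregulated. The direction held for all 521 DEGs without any one library, wherever they were tested. This is no added support, since the DEGs were chosen on these same libraries. The SPM libraries were not alike within the DEGs. The median log2 difference of the upregulated DEGs from the DCM mean was 0.86 in SPM_1, 0.79 in SPM_2 and 0.66 in SPM_3, and 255 of the 392 were higher in SPM_1 than in SPM_3. For the downregulated DEGs the medians were -0.80, -0.72 and -0.58.

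The change of a gene followed its GC content. Across 14484 genes, Spearman's rho between the log2 fold change and the percent of G and C in the longest transcript was -0.502, and -0.497 without SPM_2; genes are not independent replicates, so this is a description. In the 1449 genes lowest in GC (31.0% to 41.5%) the median log2 fold change was 0.34, with 130 genes upregulated and 1 downregulated. In the 1449 highest (57.8% to 78.3%) it was -0.22, with 11 upregulated and 33 downregulated. All 3 SPM libraries followed this course, at 0.31 to 0.32 above the DCM mean in the GC-poorest genes. The DCM libraries also differed from each other along it: in the GC-poorest genes DCM_2 lay at -0.13 and DCM_3 at 0.091. With each library's trend on GC content entered as an offset, 88 genes were upregulated (0.607%) and 46 downregulated (0.317%), and 109 of these 134 were DEGs without the correction. With the correction and without SPM_2, edgeR called 0 genes in either direction, with 2024 of 14828 genes at an unadjusted p under 0.05 and a smallest adjusted p of 0.0575; DESeq2 on the same libraries and offsets called 50 up and 34 down. Whether the trend arose in the hearts or in the making of the libraries was not tested. Below, the fit without SPM_2 and the fit with the correction are separate edgeR fits. A gene that was a DEG in each was still no DEG in the edgeR fit that combined them.

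**Figure D2:**
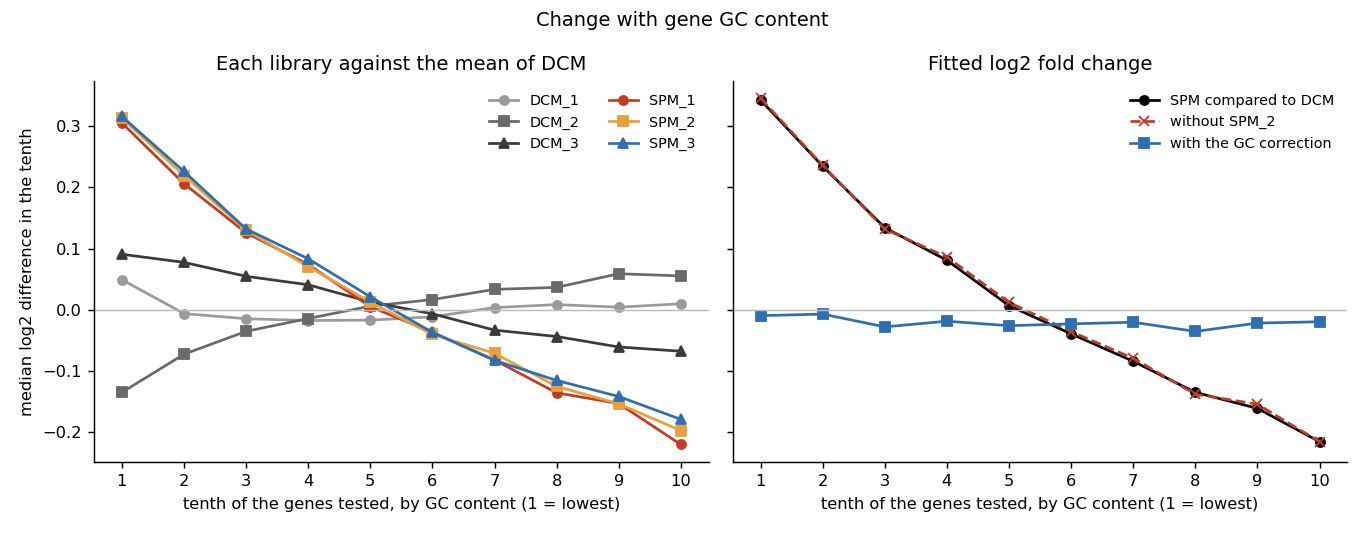
Median log2 difference of each library from the DCM mean (left) and median fitted log2 fold change (right) in 10 groups of about 1449 genes ordered by GC content. The 3 SPM lines fall together from 0.31 to 0.32 at the lowest GC to between -0.22 and -0.18 at the highest, the DCM lines diverge less, and the corrected line stays near 0.

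What low and high GC content look like in sequence is shown by Tfrc, the GC-poorest of the leading rises outside the mitochondrial genome, and Cldn5, the GC-richest of the leading falls. Both were picked by their GC content, so the contrast between them is fixed by the choice and is no evidence of the trend. Their changes were 1.32 and -1.15 without the GC correction, and 0.99 and -0.94 with it. The stretches below are 150 bases each from the middle of the longest coding exon, 5′ to 3′ in the sense of the gene, with G and C in capitals (GENCODE M21, GRCm38). That of Tfrc lies on the plus strand at chr16:32630139-32630288 in coding exon 18 of 18 and holds 45.3% G or C, in a coding sequence with 41.7%. That of Cldn5 lies on the plus strand at chr16:18777248-18777397 in its only coding exon and holds 67.3%, in a coding sequence with 64.1%.
Tfrc: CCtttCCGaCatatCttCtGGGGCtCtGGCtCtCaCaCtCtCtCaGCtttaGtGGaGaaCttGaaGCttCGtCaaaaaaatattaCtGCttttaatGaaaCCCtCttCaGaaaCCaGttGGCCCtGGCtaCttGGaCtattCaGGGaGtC
Cldn5: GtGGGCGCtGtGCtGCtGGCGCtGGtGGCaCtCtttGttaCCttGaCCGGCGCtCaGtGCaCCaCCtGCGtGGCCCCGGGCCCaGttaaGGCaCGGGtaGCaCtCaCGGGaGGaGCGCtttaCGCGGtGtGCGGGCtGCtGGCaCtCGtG

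Tfrc encodes the transferrin receptor, through which cells take up iron. It stood at 10.1, 8.84 and 16.2 CPM in DCM, against 30.4, 29.1 and 28.3 CPM in SPM. The SPM libraries were close to each other and all above DCM (log2 fold change 1.32 ± 0.18 SE, adjusted p = 0.00799). Cldn5, the claudin of endothelial tight junctions, stood at 90.4, 123.9 and 87.9 CPM in DCM, against 36.9, 46.2 and 53.3 CPM in SPM. Every SPM library was below every DCM library (-1.15 ± 0.15, adjusted p = 0.00786). Both were DEGs without SPM_2 and, in a separate fit, with the GC correction, where the changes were 0.99 and -0.94. In the edgeR fit that combined the correction with leaving out SPM_2, neither was a DEG. They are among the 54 protein-coding DEGs, 40 up and 14 down, that did not overlap and were also DEGs without SPM_2. The lack of overlap and the call without SPM_2 were thus required by the choice of Tfrc and Cldn5, and are no added support. The genes with the 12 largest changes in each direction follow.

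Of these 12 rises, 8 were at most 10.6 CPM in every library. Fcgr4, an activating receptor for antibody on monocytes and macrophages, had 1.67, 0.731 and 0.773 CPM in DCM, against 5.73, 5.53 and 4.30 CPM in SPM (log2 fold change 2.26 ± 0.30, adjusted p = 0.00786). Its SPM libraries were all above DCM, which the choice of these genes required, and the part of liver-type RNA in this rise was not tested. In bulk tissue more cells of a type and more RNA per cell cannot be told apart. Marco, a scavenger receptor of resident macrophages in liver, spleen and lung, had 0.0737, 0 and 0.0286 CPM in DCM, against 2.77, 1.60 and 1.02 CPM in SPM (5.46 ± 0.68). Saa3, an acute-phase serum amyloid made by macrophages and stromal cells, had 0.369, 0.0332 and 0.286 CPM in DCM, against 10.2, 6.32 and 1.78 CPM in SPM (4.64 ± 0.68). For both the SPM libraries were unequal, SPM_1 being the highest and SPM_3 the lowest, and none overlapped DCM. Ngp, a granule protein of immature neutrophils, rose to 1.54, 1.32 and 0.701 CPM from at most 0.123 CPM. The low-count filter can admit genes near 0 in DCM, such as Marco, Ngp and Apoh, through their SPM libraries alone. Such a gene is bound to be higher in SPM, so its direction is no support, here and in the lists below.

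Cxcl13, a chemokine that draws B cells, had 2.53, 2.53 and 2.81 CPM in DCM, against 59.3, 30.7 and 5.74 CPM in SPM (3.61 ± 0.65, adjusted p = 0.0119). SPM_1 was about 10 times as high as SPM_3, and every SPM library was above DCM. Plac8, a small protein of myeloid and other immune cells, went the other way among the SPM libraries, with 4.37, 4.94 and 5.35 CPM against 1.20, 0.731 and 1.49 CPM in DCM (2.08 ± 0.25, adjusted p = 0.00652). Spn, the leukocyte sialoglycoprotein CD43, rose to between 5.77 and 10.6 CPM from between 2.36 and 3.02 CPM (1.60 ± 0.22). Apoh and Tat, an apolipoprotein and the tyrosine aminotransferase of the liver, complete the rises outside the mitochondria. Apoh followed the hepatocyte genes, with 7.62, 2.92 and 0.478 CPM in SPM and at most 0.123 CPM in DCM. Tat was high in all 3 SPM libraries, with 5.97, 3.99 and 3.06 CPM against 0.491, 1.13 and 0.802 CPM in DCM (2.45 ± 0.34, adjusted p = 0.00813).

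The 12 falls ranged from -1.15 to -0.63 on the log2 scale. Gclm, the modifier subunit of the enzyme that starts glutathione synthesis, had 11.6, 15.7 and 14.9 CPM in DCM, against 6.57, 6.26 and 6.76 CPM in SPM (-1.10 ± 0.13, adjusted p = 0.00652). Its GC content of 42.1% is low, and with the correction its fall was larger (-1.38). Dcxr, a carbonyl reductase of xylulose and of reactive carbonyls, fell to 9.31, 8.80 and 8.44 CPM from 16.7, 16.7 and 15.6 CPM (-0.88 ± 0.093). Fah, the last enzyme of tyrosine breakdown, fell to 13.9, 14.1 and 14.4 CPM from 24.3, 29.5 and 22.9 CPM (-0.85 ± 0.10). In these 3 genes the spread within SPM was under 1 CPM and the groups were far apart.

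Pcx, the pyruvate carboxylase that refills the citric acid cycle, fell to between 25.1 and 29.3 CPM from between 38.0 and 56.5 CPM (-0.76 ± 0.13, adjusted p = 0.0107). Cyp26b1, which breaks down retinoic acid, fell to 29.0, 21.7 and 18.2 CPM from 44.0, 40.8 and 46.6 CPM (-0.93 ± 0.14). Slc43a2, a transporter of neutral amino acids, fell to 39.8, 44.3 and 51.0 CPM from 71.7, 77.2 and 70.4 CPM (-0.70 ± 0.091). The potassium channel gene Kcnn1 (-0.80 ± 0.13) and the membrane adaptor gene Shisa4 (-0.78 ± 0.088) also fell. Rita1 (-0.69 ± 0.093) and Pnpla7 (-0.63 ± 0.076), a lysophospholipase, were DEGs without SPM_2 but fell short of a 1.5-fold change with the GC correction. The other 22 of these 24 genes remained DEGs with the correction.

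**Figure D3:**
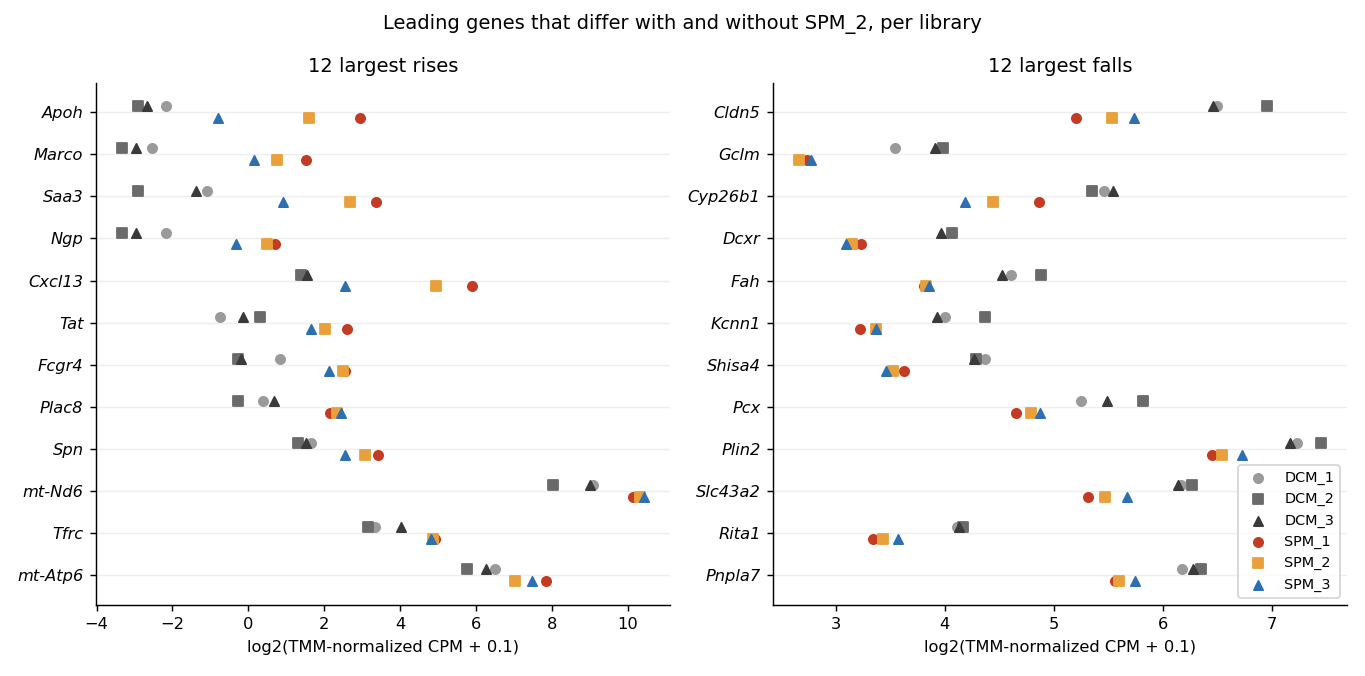
TMM-normalized CPM on a log2 scale, after adding 0.1, of the 12 largest rises (left) and 12 largest falls (right) among DEGs that did not overlap and were DEGs without SPM_2, one point per library. In Apoh, Saa3 and Cxcl13 the SPM points spread widely with SPM_1 highest and SPM_3 lowest, while in Fcgr4, Tfrc, Gclm and Fah they lie together.

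Lipid genes were lower in SPM, most plainly those of the lipid droplet. Of 13 lipid droplet genes tested, all 13 were lower and 12 did not overlap, with a median log2 fold change of -0.40 beside 0.0057 over all genes tested, and 2 were DEGs. Plin2, the coat protein of lipid droplets, had 150.3, 175.4 and 143.9 CPM in DCM, against 87.5, 93.2 and 106.2 CPM in SPM (-0.71 ± 0.095, adjusted p = 0.00786), and remained a DEG without SPM_2 and with the correction. Ces1d, a carboxylesterase that hydrolyses stored triglyceride, fell to 65.7, 91.6 and 112.3 CPM from 129.5, 146.3 and 131.6 CPM (-0.60 ± 0.15, adjusted p = 0.0292), but was no DEG without SPM_2. The most abundant member, Pnpla2, the rate-limiting triglyceride lipase ATGL, had 1188, 1264 and 1121 CPM in DCM, against 835.8, 851.5 and 882.9 CPM in SPM. Its change of -0.48 ± 0.074 had an adjusted p of 0.00956 and was under the 1.5-fold limit. The median of the list was -0.41 without SPM_2 and -0.31 with the correction, where 12 of 13 were lower.

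Genes of fatty acid uptake and oxidation were lower by less. Their median was -0.17 over 27 genes, with 0 up and 2 down; it was -0.17 without SPM_2, where none was a DEG, and -0.15 with the correction, where 24 of 27 were lower and Pdk4, the kinase that blocks glucose oxidation, joined the 2 as a DEG. Angptl4, a secreted inhibitor of lipoprotein lipase that fatty acids induce, had 83.0, 65.8 and 72.3 CPM in DCM, against 24.7, 39.8 and 51.2 CPM in SPM (-0.94 ± 0.20, adjusted p = 0.0185). Ehhadh, the bifunctional enzyme of peroxisomal oxidation, fell to 24.4, 27.2 and 31.1 CPM from 45.5, 45.3 and 38.4 CPM (-0.64 ± 0.10, adjusted p = 0.00968). In both genes every SPM library was below DCM, SPM_1 being the lowest. Fabp3, the abundant fatty acid binding protein of the heart, had 4490, 5240 and 4397 CPM in DCM, against 4372, 4172 and 3987 CPM in SPM, a change of -0.17 ± 0.090 with an adjusted p of 0.201. Slc25a34, a mitochondrial carrier among the most abundant DEGs that fell, had 378.6, 404.0 and 442.0 CPM in SPM, below 617.0, 688.6 and 581.4 CPM in DCM (-0.62 ± 0.087), and was a DEG without SPM_2 but not with the correction (-0.46).

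No gene of glucose use was a DEG among 29 tested (median -0.18). Of 21 genes of branched-chain amino acid and ketone breakdown 18 were lower (median -0.27), and 1 was a downregulated DEG, beside 0.89% of all genes tested. This was Bdh1, the enzyme that oxidizes the ketone body 3-hydroxybutyrate. Bdh1 had 22.3, 27.5 and 14.2 CPM in DCM, against 3.19, 7.36 and 12.6 CPM in SPM (-1.47 ± 0.38, adjusted p = 0.0292). SPM_3 came close to DCM_3, while SPM_1 was far below, and Bdh1 was no DEG without SPM_2 or with the correction. In the erythroid list the globin genes Hba-a1, Hba-a2, Hbb-bs and Hbb-bt fell, with Hbb-bs at 1504, 641.9 and 765.7 CPM in DCM, against 368.4, 479.1 and 637.1 CPM in SPM (-0.97 ± 0.29, adjusted p = 0.0432). DCM_1 was far above DCM_2 and DCM_3, and SPM_3 nearly reached DCM_2. None of the 4 was a DEG without SPM_2 or with the correction. Hba-a1 and Hba-a2 are near-identical copies of each other, as are Hbb-bs and Hbb-bt, and reads may be split within each pair.

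The mitochondrial and nuclear parts of the respiratory chain differed in direction. Genes named mt- held 16.8%, 15.5% and 18.9% of the counts in DCM and 21.1%, 21.01% and 21.1% in SPM. All SPM libraries were above all DCM libraries, by 4.0 percentage points between means of 17.1% ± 1.74 and 21.1% ± 0.045 (SD, n = 3 each; exact permutation test, two-sided p = 0.1, the smallest possible). Of the 13 mitochondrially encoded mRNAs, 7 were upregulated DEGs and all 13 were higher, with a median of 0.80. Their GC content is low, with a median of 37.1%, and with the GC correction the median was 0.36, 9 were higher and 2 were DEGs. Of 72 nuclear genes of the respiratory chain none was a DEG and 63 were lower, with a median of -0.20 both with and without the correction; with it 1, Cox5a, was a DEG (-0.62).

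The 13 mRNAs did not change by the same amount. Their levels ran from 0.0332 CPM (mt-Atp8 in DCM_2) to 132500 CPM (mt-Co1 in SPM_1), and the median counts each gene alike. Among the abundant members mt-Nd1 and mt-Nd2 were DEGs, while mt-Co1, mt-Cytb, mt-Nd5 and mt-Nd4 were not. mt-Nd6, a subunit of complex I encoded on the strand opposite to the other mitochondrial mRNAs, had 546.6, 263.8 and 515.5 CPM in DCM, against 1140, 1278 and 1390 CPM in SPM (1.52 ± 0.22, adjusted p = 0.00864; 1.05 with the correction). mt-Atp6, a subunit of ATP synthase, had 91.4, 54.0 and 76.5 CPM in DCM, against 231.5, 130.8 and 178.3 CPM in SPM (1.28 ± 0.21, adjusted p = 0.0107; 0.84 with the correction). These were the only DEGs of the list with the correction. Without SPM_2 the list held 4 DEGs, these and mt-Nd3 and mt-Co3. mt-Nd1 and mt-Nd2 of complex I and mt-Co3 of complex IV rose by 0.67, 0.80 and 0.91, and mt-Nd3 and mt-Atp8 by 0.97 and 2.26, the last at under 1 CPM in every library. The most abundant member, mt-Co1, held 104300, 107100 and 125500 CPM in DCM, against 132500, 126800 and 125200 CPM in SPM, with SPM_3 inside the range of DCM (0.19 ± 0.11, adjusted p = 0.225). With the correction the values of mt-Co1, mt-Co2, mt-Nd4 and mt-Cytb were below 0, at -0.16, -0.30, -0.026 and -0.053. The kit in the labels does not mark strand and neighbouring mitochondrial genes overlap, so reads of mt-Nd6 and of transcripts opposite to it cannot be told apart. Of the rRNAs, mt-Rnr2 rose by 0.74 ± 0.14 (adjusted p = 0.0127) and mt-Rnr1 showed 0.58 ± 0.14, and neither was a DEG without SPM_2 or with the correction.

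The list of sarcomere and fetal-type muscle genes had a median of -0.037. Of its 23 genes, 6 were upregulated and none downregulated. Ankrd1, a stretch-responsive cofactor of the sarcomere, had 860.8, 966.0 and 1017 CPM in DCM, against 1857, 1697 and 1575 CPM in SPM (0.85 ± 0.091, adjusted p = 0.00652). It was a DEG under each change taken alone (0.86 without SPM_2 and 0.78 with the correction). Myh7, the slow myosin heavy chain of the fetal mouse ventricle, had 1163, 1877 and 1225 CPM in DCM, against 4763, 3295 and 1990 CPM in SPM (1.24 ± 0.27, adjusted p = 0.0191). Nppb, the B-type natriuretic peptide, had 156.1, 162.6 and 160.6 CPM in DCM, against 402.6, 286.3 and 193.8 CPM in SPM (0.88 ± 0.20, adjusted p = 0.0202). In both the groups did not overlap, yet SPM_3 lay just above DCM and SPM_1 was more than 2 times as high as SPM_3.

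Nppa, the atrial natriuretic peptide, was ordered the other way, with 551.3, 703.9 and 832.8 CPM in SPM and 293.8, 445.5 and 509.4 CPM in DCM (0.74 ± 0.19, adjusted p = 0.0292). The summed atrial list moved with it, from 1509 to 2316 CPM in DCM, against 2236, 2832 and 3335 CPM in SPM_1, SPM_2 and SPM_3, and the part of the dissection in the rise of Nppa was not tested. Myh7b (0.62 ± 0.13) and Nebl (0.61 ± 0.097) were also upregulated. With the correction Ankrd1, Myh7 and Myh7b were DEGs, and Nppa, Nppb and Nebl were not. Myh6 was not called, at 18390, 23330 and 20030 CPM in DCM, against 13670, 17010 and 19820 CPM in SPM (-0.29 ± 0.14, adjusted p = 0.165). Without SPM_2 only Ankrd1 and Nebl of the 6 were DEGs. Myh7, Myh7b and Nppb then had an adjusted p of 0.0566 at nearly the same change, which is bound to follow since SPM_2 lay between SPM_1 and SPM_3.

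Of 29 genes of calcium handling and ion channels, 4 were upregulated, beside 2.7% of all genes tested, and none downregulated, with a median near 0. Slc8a1, the sodium-calcium exchanger, had 214.6, 234.2 and 268.3 CPM in DCM, against 423.1, 369.1 and 337.2 CPM in SPM (0.66 ± 0.10, adjusted p = 0.00968). Its GC content is 40.2%, and with the correction its change was 0.32 and not called; it was the only DEG of the list without SPM_2. Trdn, which anchors the calcium store, rose by 0.76 ± 0.15, and the potassium channel genes Kcnj3 and Kcne1 by 0.61 ± 0.15 and 0.71 ± 0.15. Kcne1 was the only DEG of the list with the correction.

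Markers of myeloid cells were higher throughout. Of 25 monocyte and macrophage genes, all 25 were higher and 16 were upregulated DEGs, with a median of 0.70. Adgre1, the macrophage marker F4/80, had 17.3, 15.0 and 17.4 CPM in DCM, against 51.0, 36.5 and 22.6 CPM in SPM (1.15 ± 0.23, adjusted p = 0.0147). Lyve1, carried by resident cardiac macrophages and by lymphatic vessels, had 35.0, 35.0 and 33.1 CPM in DCM, against 58.7, 55.2 and 51.5 CPM in SPM (0.68 ± 0.072, adjusted p = 0.00652). The SPM libraries of Lyve1 were close together, whereas Adgre1 was more than 2 times as high in SPM_1 as in SPM_3. Cybb, the catalytic subunit of the phagocyte oxidase (0.86 ± 0.15), Cx3cr1, the fractalkine receptor (0.82 ± 0.14), Siglec1 (0.65 ± 0.13) and the lysozyme Lyz2 (0.62 ± 0.18) also rose.

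The call of this list depended on single libraries. It held 3 DEGs without SPM_2 (Fcgr4, Lyve1 and Cybb), 9 without SPM_1 and 22 without SPM_3, and 6 with the GC correction, with medians of 0.71, 0.49, 0.86 and 0.64. Its summed level was 674 to 787 CPM in DCM, against 1364, 1043 and 836 CPM in SPM_1, SPM_2 and SPM_3, in the order of the hepatocyte genes. The 6 genes of liver and red pulp macrophages summed to 8.59 to 11.4 CPM in DCM and to 21.03, 18.1 and 15.4 CPM in SPM. Of these, Clec4f, the marker of Kupffer cells, was at 0.0665 to 0.301 CPM in all 6 libraries, while Marco, Cd5l (2.60 ± 0.59) and Vsig4 (0.70 ± 0.21, with an overlap of SPM_3 and DCM_2) were DEGs. Without SPM_2 only Marco was, and with the correction Marco and Cd5l were. Of the 6 genes, 4 passed the low-count filter. Marco and Cd5l can pass it through SPM libraries alone, so their direction is no support. The part of liver-resident cells in the myeloid genes was not tested.

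Of 16 neutrophil genes listed, 10 passed the low-count filter. All 10 were higher (median 1.29, and 1.17 with the correction) and 7 were DEGs. The filter can admit a gene through its SPM libraries alone, and such a gene is bound to be higher. The shared direction and the median are therefore no support for a rise. S100a8, an abundant calcium-binding protein of neutrophils and monocytes, had 2.21, 1.86 and 3.15 CPM in DCM, against 11.5, 7.17 and 4.24 CPM in SPM (1.67 ± 0.33, adjusted p = 0.0149). Its partner S100a9 rose by 1.36 ± 0.37 with an overlap, since DCM_3 at 11.3 CPM was above SPM_3 at 10.4 CPM. Mmp8, the neutrophil collagenase, rose by 2.83 ± 0.48 to at most 2.14 CPM. Only Ngp was a DEG without SPM_2. Complement genes were upregulated in 8 of 16 (median 0.61), with the central component C3 at 463.6, 440.4 and 385.0 CPM in DCM, against 890.6, 720.8 and 568.2 CPM in SPM (0.76 ± 0.14, adjusted p = 0.0128). C4b rose by 0.77 ± 0.19 and C1qa by 0.73 ± 0.19, C1qa with an overlap of SPM_3 and DCM_1. None of the 8 was a DEG without SPM_2, 1 was without SPM_1, and 5 were with the correction.

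Among 22 chemokine and cytokine genes 5 were upregulated, 1 without SPM_2 and 3 with the correction (median 0.58, and 0.32 with the correction). Besides Cxcl13 they included the monocyte-attracting Ccl8, with 3.59, 1.33 and 1.98 CPM in DCM, against 21.1, 11.2 and 4.21 CPM in SPM (2.38 ± 0.51, adjusted p = 0.0175), and Ccl12 (1.81 ± 0.36). SPM_3 was the lowest of its group in both and still above DCM. The interleukin-1 antagonist Il1rn also rose (1.89 ± 0.47), and it was no DEG without SPM_2 or with the correction. Of 13 T and NK cell genes 1 was upregulated, beside 2.7% of all genes tested. This was Gzmb, the granule protease granzyme B (2.52 ± 0.62, at most 1.38 CPM, no DEG without SPM_2 or with the correction). Of 10 B and plasma cell genes none was upregulated (median 0.090).

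The interferon list showed a different order of the libraries. Of 29 genes, 26 were higher and 7 were upregulated DEGs, with 2 left without SPM_2 and 2 with the correction (median 0.34, 0.35 without SPM_2 and 0.37 with the correction). The summed level was 407 to 488 CPM in DCM, against 546, 591 and 634 CPM in SPM_1, SPM_2 and SPM_3, so that SPM_3 was the highest here. Iigp1, a GTPase that attacks the vacuoles of intracellular pathogens, had 28.2, 16.3 and 26.5 CPM in DCM, against 47.0, 49.4 and 52.3 CPM in SPM (1.06 ± 0.16, adjusted p = 0.00956), and was a DEG without SPM_2 and with the correction. Ifit2, which binds foreign RNA, had 15.6, 14.1 and 16.2 CPM in DCM, against 22.2, 22.5 and 25.97 CPM in SPM (0.62 ± 0.095), and was a DEG without SPM_2 but not with the correction (0.35). Gbp5, a guanylate-binding protein, had 13.2, 10.2 and 11.1 CPM in DCM, against 16.0, 20.9 and 22.7 CPM in SPM (0.78 ± 0.14), and Irgm1 rose by 0.62 ± 0.14. Neither was a DEG without SPM_2, and Gbp5 was one with the correction. All 4 kept SPM above DCM in every library.

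**Figure D4:**
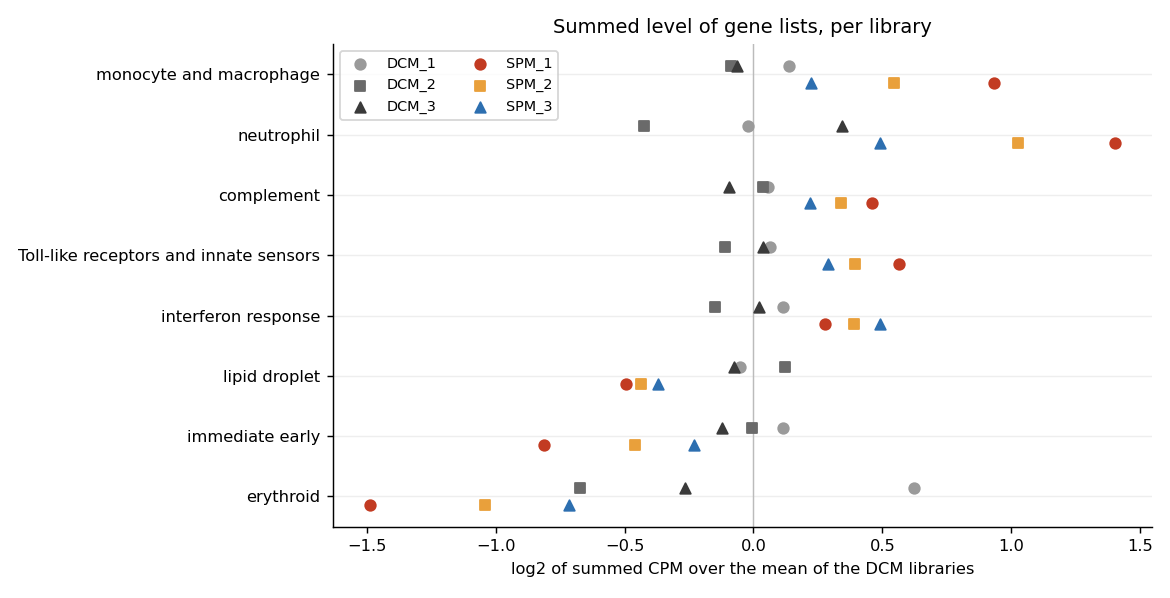
Summed TMM-normalized CPM of 8 gene lists in each library, as log2 of the ratio to the mean of the 3 DCM libraries. For the myeloid and complement lists SPM_1 is the highest and SPM_3 the nearest to DCM, the interferon list has the reverse order, and the lipid droplet, immediate early and erythroid lists lie below 0 in all SPM libraries.

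The promoters of 2 groups whose members moved together are shown for a motif each, searched on both strands in the 250 bases before the start of each gene (RefSeq, GRCm38.p6, 5′ to 3′ in the sense of the gene, matches in capitals). GAAANNGAAA is the core of the element bound by interferon regulatory factors. It lay in 2.98% of 32851 promoters, and in those of 5 of the 6 interferon DEGs that have an entry. Gbp5 lies at chr3:142496684-142496933 on the plus strand with 1 match, 165 bases before the start. Irgm1 lies at chr11:48871421-48871670 on the minus strand with 2 overlapping matches, from 30 bases before the start. Ifit2, which also rose, had no match in this window.
Gbp5: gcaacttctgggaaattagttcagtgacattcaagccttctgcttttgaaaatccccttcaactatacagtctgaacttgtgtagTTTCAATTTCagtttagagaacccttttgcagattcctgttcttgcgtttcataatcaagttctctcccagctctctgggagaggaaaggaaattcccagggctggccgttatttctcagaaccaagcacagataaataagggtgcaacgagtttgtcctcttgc
Irgm1: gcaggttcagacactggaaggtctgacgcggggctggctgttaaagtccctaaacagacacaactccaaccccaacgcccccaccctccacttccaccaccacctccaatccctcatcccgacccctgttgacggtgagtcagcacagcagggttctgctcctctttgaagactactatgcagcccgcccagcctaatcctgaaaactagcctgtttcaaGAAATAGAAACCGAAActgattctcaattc

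CGTCA is the core site bound by the cyclic AMP response factor CREB and its relatives. It lay in 17.8% of the promoters and in those of all 4 immediate early genes that were downregulated DEGs. For both motifs the percent is per promoter, while a gene counts where any of its promoters holds the motif. Fos lies at chr12:85473640-85473889 on the plus strand with 2 matches, 129 and 66 bases before the start. Nr4a1 lies at chr15:101266596-101266845 on the plus strand with 4 matches. Of the members tested, changed or not, 14 of 21 in the interferon list and 11 of 17 in the immediate early list held their motif. A match is a string of letters and not a site shown to be bound.
Fos: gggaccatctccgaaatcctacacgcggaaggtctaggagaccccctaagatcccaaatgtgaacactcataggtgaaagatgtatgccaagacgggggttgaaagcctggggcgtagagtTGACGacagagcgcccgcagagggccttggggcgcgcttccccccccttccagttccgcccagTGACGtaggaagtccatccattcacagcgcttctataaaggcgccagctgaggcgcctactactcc
Nr4a1: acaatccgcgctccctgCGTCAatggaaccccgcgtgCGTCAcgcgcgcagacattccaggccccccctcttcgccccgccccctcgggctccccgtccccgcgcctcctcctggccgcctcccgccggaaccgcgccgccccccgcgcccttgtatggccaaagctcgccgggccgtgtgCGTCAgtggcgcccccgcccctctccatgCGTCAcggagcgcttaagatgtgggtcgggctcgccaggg

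Immediate early genes, which are switched on within minutes of a stimulus, were lower in SPM in 18 of 22 (median -0.53, and -0.36 with the correction), and 4 were DEGs. Fos had 35.2, 16.8 and 20.3 CPM in DCM, against 7.17, 11.03 and 15.99 CPM in SPM (-1.09 ± 0.30, adjusted p = 0.0351). Nr4a1, an orphan nuclear receptor, had 217.2, 138.6 and 149.1 CPM in DCM, against 66.7, 94.0 and 120.7 CPM in SPM (-0.84 ± 0.21, adjusted p = 0.0254). Dusp1, a phosphatase of MAP kinases, had 199.8, 246.5 and 208.3 CPM in DCM, against 91.5, 136.1 and 166.2 CPM in SPM (-0.73 ± 0.17, adjusted p = 0.0235). In all 3 the groups did not overlap, SPM_1 was the lowest and SPM_3 came near DCM. Cebpb also fell (-1.01 ± 0.31), as did Sik1, a kinase that cyclic AMP induces (-0.75 ± 0.23, with an overlap of SPM_3 and DCM_3, and no DEG without SPM_2 or with the correction). None of the 4 in the list was a DEG without SPM_2 or with the correction. Without SPM_1, 2 were DEGs and the median was -0.36. Genes of this kind also respond to handling of the tissue, and their part in these values was not tested.

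None of the 23 antioxidant genes tested was an upregulated DEG, 7 were higher and 16 lower (median -0.15). The DEGs were Gclm and Srxn1, the enzyme that restores oxidized peroxiredoxins, which had 38.2, 34 and 38.4 CPM in DCM, against 21.4, 23.7 and 28.3 CPM in SPM (-0.59 ± 0.10, adjusted p = 0.0112). Gclm was a DEG without SPM_2 and with the correction, and Srxn1 was not under either. In the endothelial list 19 of 24 were lower (median -0.22, and -0.095 with the correction) and Cldn5 and Hey1, a target of Notch signalling (-0.63 ± 0.15), fell. Of these, only Cldn5 was a DEG without SPM_2 and with the correction. In the fibroblast and matrix list none of 28 was a DEG (median -0.12, and -0.026 with the correction).

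In the main fit none of the 21 polyamine genes tested was a DEG in hearts given spermine, with 12 higher and 9 lower, and a median of 0.041 and -0.038 with the correction. Odc1, the ornithine decarboxylase that begins polyamine synthesis, had 137.3, 132.0 and 120.7 CPM in DCM, against 106.9, 108.7 and 115.0 CPM in SPM (-0.24 ± 0.071, adjusted p = 0.0445). Srm, the spermidine synthase, had 14.7, 13.6 and 13.6 CPM in DCM, against 9.98, 8.52 and 9.495 CPM in SPM (-0.58 ± 0.10, adjusted p = 0.0112), just under the 1.5-fold limit. In both every SPM library was below DCM. Srm was a downregulated DEG by DESeq2 (-0.59, adjusted p = 0.000505) and in edgeR's fits without SPM_1, without SPM_3, without DCM_2 or without DCM_3. With the correction it showed -0.39 and was not called. Smox, the spermine oxidase, showed -0.20 ± 0.075 (adjusted p = 0.0932), and Dhps, which uses spermidine to modify the translation factor eIF5A, -0.33 ± 0.095 (adjusted p = 0.0414). Atp13a3, a transporter of polyamines, showed 0.40 ± 0.079 (adjusted p = 0.0147), and with the correction 0.047. Without SPM_2 the adjusted p of these 5 genes lay between 0.0669 and 0.353. Arg1, a listed gene that did not pass the low-count filter, had 0.0983, 0.199 and 0.115 CPM in DCM. In SPM it had 4.52, 2.01 and 0.159 CPM, in the order of the hepatocyte genes. DESeq2, which tested it, called it upregulated (4.02, adjusted p = 0.00905).

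**Figure D5:**
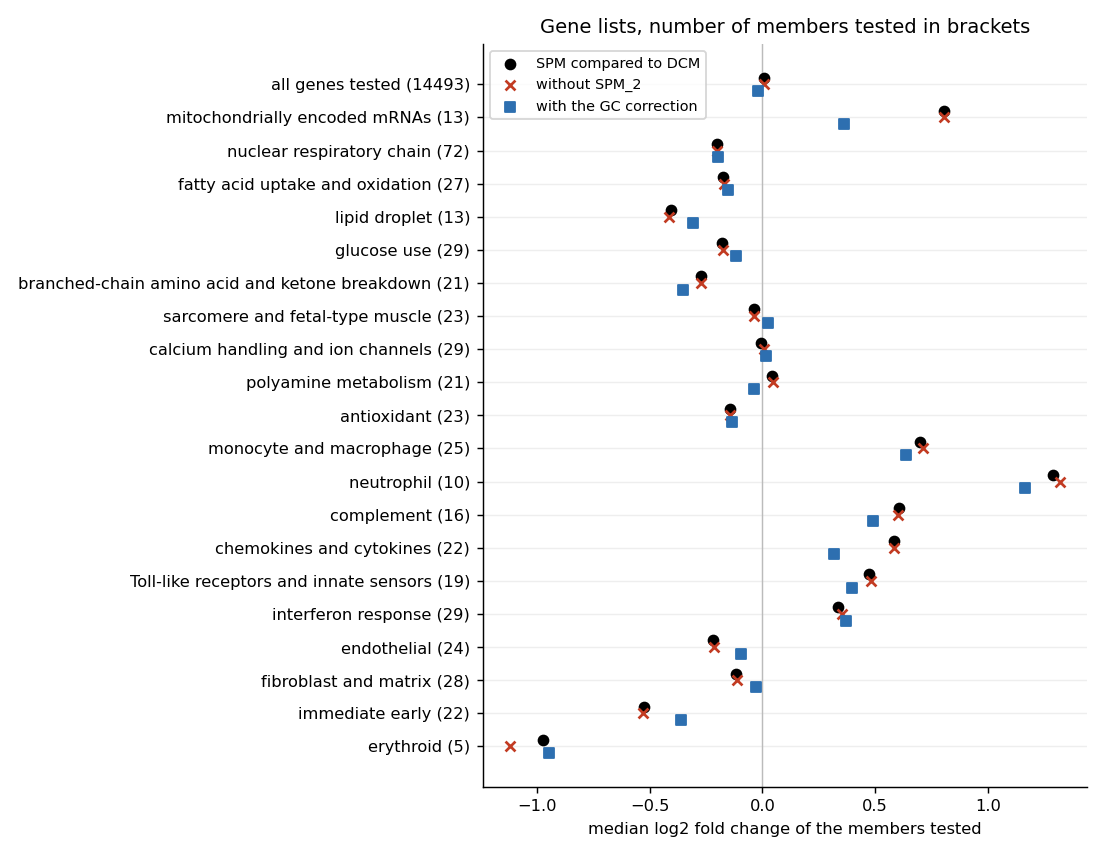
Median log2 fold change of the members tested in 20 gene lists and over all genes, from the comparison with all 6 libraries, without SPM_2, and with the GC correction. Leaving out SPM_2 moves most medians little, which is bound to follow where SPM_2 lies between SPM_1 and SPM_3. The correction lowers the median of the mitochondrial mRNAs from 0.80 to 0.36 and brings those of the endothelial and fibroblast lists toward 0.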

How the data were processed

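RNA was sequenced after selection on oligo(dT) beads and removal of rRNA, per the study's methods. The submitters' processing notes name Bowtie 0.12.2 and the builds mm8 and mm9; their roles, the counting tool and its strand setting were not stated in these sources. Raw counts per gene and FPKM values were deposited by the authors; the counts were the main data and FPKM an alternative.

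Of 22851 genes, 22844 were matched by ID to GENCODE M21, whose longest transcript gave GC content (22820 genes). Genes were filtered with filterByExpr and tested on counts with edgeR 4.0.16 (R 4.3.3, quasi-likelihood, TMM, group as the only term, Benjamini-Hochberg), as the study's thresholds ask: adjusted p under 0.05 and a fold change of 1.5. Library totals were 30556114 to 39718680. The GC correction entered each library's lowess trend (span 0.3) of log2 CPM on GC content as an offset. DESeq2 1.42.0, limma 3.58.1, other filters, a replicate block and each library left out were alternatives; both DESeq2 fits without SPM_2 were chosen after seeing the data. The scripts were tested on simulated data.

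Members and gene lists were chosen with earlier results of these data known. Named genes were the 12 largest rises and falls among protein-coding DEGs without overlap that were DEGs without SPM_2, the 10 most abundant DEGs each way, per list the most abundant member and up to 6 DEGs of smallest p, and the polyamine and mitochondrial members; Clec4f, Pdk4 and Cox5a were named after their values were seen. Replicate numbers gave no sign of pairing the libraries, which so few libraries cannot exclude. Some list members were not analysed or are not reported here. The third group of the series was not used.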

Additional observations from a re-analysis of the deposited data

How the results depend on the processing

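Against 392 upregulated and 129 downregulated DEGs, leaving out each library in turn gave 42 to 576 upregulated and 14 to 215 downregulated DEGs, the lowest without SPM_2, the highest without SPM_3, and 49 and 24 without DCM_2. The GC correction gave 88 and 46, and 0 and 0 without SPM_2, where DESeq2 gave 50 and 34; DESeq2 without SPM_2 and without the correction gave 168 and 46. A fold change limit of 1.3 gave 858 and 441, no limit 1286 and 1124, and limma on log2(FPKM + 0.1) 257 upregulated DEGs. With the replicate number as a block the counts were 476 and 134, and with the block and the GC correction 184 and 72. Residuals of same-numbered libraries from their group means correlated at -0.024 to -0.0041. This gave no sign of pairing by number, but so few libraries cannot exclude it. DESeq2, another scaling (RLE), both other filters and leaving out the mitochondrial genes kept both counts within 1.5 times. The cause of these shifts was not tested, apart from the fewer libraries.

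Spearman's rho of the change with GC content was -0.436 to -0.518 with a library left out and -0.00095 with the correction, which is built to remove it. All 521 DEGs kept their direction in every fit that tested them, which is no added support, since they were chosen on the same libraries. Among the genes named but not called, the sign turned for mt-Nd4 (-0.026 with the correction, -0.035 also without SPM_2 by edgeR and DESeq2, -0.023 with the block), mt-Cytb (-0.053, -0.057, -0.057 and -0.048), mt-Co1 (-0.16, -0.15, -0.15 and -0.15) and mt-Co2 (-0.30, -0.40, -0.40 and -0.26). For mt-Co2 it also turned with a library left out (-0.13 to 0.43) and by DESeq2 without SPM_2 (-0.032). Of the 89 named DEGs, 37 remained DEGs without SPM_2, 30 without DCM_2 and 46 with the GC correction. With the correction and without SPM_2, 0 of the 89 remained by edgeR and 32 by DESeq2.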

Other observations

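Genes of innate sensing that were not described above were mostly higher, 16 of 19 in the Toll-like receptor list (median 0.47, and 0.40 with the GC correction), and 5 were upregulated. Tlr7, the endosomal receptor for single-stranded RNA, had 3.61, 3.02 and 5.24 CPM in DCM, against 10.3, 9.05 and 7.46 CPM in SPM (1.17 ± 0.20 SE, adjusted p = 0.0111 by edgeR's quasi-likelihood test). Zbp1, a sensor of nucleic acids, had 2.87, 2.19 and 2.98 CPM in DCM, against 4.31, 5.41 and 5.74 CPM in SPM (0.94 ± 0.19). Both had no overlap and were DEGs with the correction, but not without SPM_2. Tlr1, Tlr2 and Tlr13 rose by 1.01, 0.71 and 1.25, Tlr13 with an overlap of SPM_3 and DCM_3, and none of these 3 was a DEG without SPM_2 or with the correction. Nlrc5, which drives genes of antigen presentation, was the DEG of that list, with 11.03, 8.34 and 10.54 CPM in DCM, against 14.2, 16.1 and 17.6 CPM in SPM (0.68 ± 0.13, and 0.74 with the correction). It was no DEG without SPM_2 (adjusted p = 0.0566).

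Hsp90b1, a chaperone of the endoplasmic reticulum, was the only DEG of 25 chaperone genes, beside 2.7% upregulated over all genes tested. It had 57.4, 48.0 and 68.97 CPM in DCM, against 99.3, 100.5 and 100.1 CPM in SPM (0.78 ± 0.11, adjusted p = 0.00813), and the SPM libraries were nearly equal. Nr1d2, a repressor of the circadian clock, was the only DEG of 17 clock genes, beside the same 2.7%. It had 53.3, 49.6 and 56.5 CPM in DCM, against 91.5, 85.7 and 79.2 CPM in SPM (0.68 ± 0.078, adjusted p = 0.00652). Both were DEGs without SPM_2 and not with the correction, where the changes were 0.52 and 0.41. Their GC content is 42.1% and 41.8%. Of 287 genes named Zfp, a large family of zinc finger repressors, 8 were upregulated, a share near the 2.7% of all genes tested, and none downregulated (median 0.13 at a median GC content of 44.5%), and with the correction none was a DEG and the median was 0.023.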
